A study of Mus musculus with 4 samples.

Results

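The *Taar7* and *Taar8* genes are the duplicated subfamilies of the mouse trace amine-associated receptors (TAARs). The members were chosen by gene name, as the 8 genes with these names among the 24421 genes with deposited values. They are *Taar7a*, *Taar7b*, *Taar7d*, *Taar7e* and *Taar7f* (5 genes) and *Taar8a*, *Taar8b* and *Taar8c* (3 genes), and they make up 8 of the 14 olfactory *Taar* genes, which are all 15 *Taar* genes except *Taar1*. RNA-seq was done on FACS-sorted cells of the main olfactory epithelium (MOE) of mice carrying a PiggyBac transgene, in 4 libraries with 1 library for each group. From TAAR enhancer 1-GFP transgenic mice a GFP-positive and a GFP-negative group were sorted, and from TAAR enhancer 2-tdTomato transgenic mice a tdTomato-positive and a tdTomato-negative group. In each construct the enhancer was joined to the Hsp68 minimal promoter, which has little activity by itself, and 1 founder line was kept for each enhancer. The labels describe the mice as adult C57BL/6, while the study's reporting summary gives both of these lines ages in the first weeks after birth, with a wider range for the tdTomato line, and a mixed background. The lines differ in enhancer, reporter, insertion, sort and range of age, so a difference between the lines cannot be assigned to any of these, and they cannot be told apart. The levels of the reporters themselves were not analysed here.

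TAARs are G protein-coupled receptors that detect volatile amines, and every one of them except TAAR1 serves as an olfactory receptor. An olfactory sensory neuron (OSN) typically expresses a single receptor gene, so the TPM of a *Taar* gene in a bulk library reflects both how many cells chose it and how much transcript each of them holds. Fewer cells of a type and less RNA per cell cannot be told apart in such libraries. *Taar7* and *Taar8* are subfamilies with several copies in the mouse, made by tandem duplication. Their genes are much more alike than the other *Taar* genes are. OSNs that express TAARs use the olfactory G protein and cyclic AMP cascade, as OSNs with odorant receptors do.

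In the GENCODE M21 annotation of GRCm38, the same assembly as mm10, all 8 genes are protein-coding and lie on chromosome 10. The *Taar7* genes span chr10:23992405-24050586, a length of 58182 bases, with *Taar7a* on the minus strand and the other 4 genes on the plus strand. The *Taar8* genes follow in chr10:24076500-24101912, a length of 25413 bases, with *Taar8a* on the plus strand and *Taar8b* and *Taar8c* on the minus strand. Each annotated model has 1 exon and runs from the start codon to the stop codon, with a coding length of 1077 bases for *Taar7* and 1035 bases for *Taar8*. The models hold no transcript ends beyond the coding sequence. A pseudogene, *Taar7c-ps*, lies between *Taar7b* and *Taar7d*. It entered only the comparison of shared windows, and its expression was not analysed here.

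The *Taar7* genes differ most at the start of the coding sequence. In the first 60 coding bases 31 positions vary among the 5 genes, and these positions are in capitals below. This stretch is shown because it is where reads can most readily separate *Taar7a* from the others. The sequences are from GRCm38, at chr10:23993422-23993481 (minus strand) for *Taar7a* and, on the plus strand, chr10:23999939-23999998 for *Taar7b*, chr10:24027222-24027281 for *Taar7d*, chr10:24037614-24037673 for *Taar7e* and chr10:24049510-24049569 for *Taar7f*.
Taar7a: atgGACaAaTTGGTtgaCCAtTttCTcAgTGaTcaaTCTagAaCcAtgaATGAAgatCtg
Taar7b: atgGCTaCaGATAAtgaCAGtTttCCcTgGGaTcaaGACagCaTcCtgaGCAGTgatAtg
Taar7d: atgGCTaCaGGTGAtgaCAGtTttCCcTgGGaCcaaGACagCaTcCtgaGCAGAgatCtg
Taar7e: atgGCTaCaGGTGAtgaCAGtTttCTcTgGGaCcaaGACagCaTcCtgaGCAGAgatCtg
Taar7f: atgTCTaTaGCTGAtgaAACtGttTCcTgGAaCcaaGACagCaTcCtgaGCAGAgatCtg

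*Taar7a* differed from each of the other 4 genes at 22 to 28 of these 60 bases. *Taar7d* and *Taar7e* differed at 1 base. Over the whole coding sequence 32 bases were found in *Taar7a* alone among the *Taar7* genes, and 21 of them lay in this stretch. The corresponding numbers of bases found in 1 gene alone were 22 for *Taar7b*, 16 for *Taar7d*, 12 for *Taar7e* and 20 for *Taar7f*.

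The *Taar8* genes are more alike, and 40 of their 1035 coding bases vary. The stretch with the most variable positions covers coding bases 964 to 1023, near the end of the receptor, where 11 of 60 bases vary and are in capitals. It is shown because *Taar8b* stands apart in it from *Taar8a* and *Taar8c*. The positions are chr10:24077463-24077522 (plus strand) for *Taar8a*, chr10:24091272-24091331 (minus strand) for *Taar8b* and chr10:24100890-24100949 (minus strand) for *Taar8c*.
Taar8a: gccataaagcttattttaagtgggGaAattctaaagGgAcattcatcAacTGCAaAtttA
Taar8b: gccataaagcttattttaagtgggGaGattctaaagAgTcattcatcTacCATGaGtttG
Taar8c: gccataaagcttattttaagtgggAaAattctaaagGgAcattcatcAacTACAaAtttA

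*Taar8b* differed from each of the other genes at 10 of these bases, and *Taar8a* differed from *Taar8c* at 2. Over the coding sequence, 21 bases were found in *Taar8b* alone, 15 in *Taar8a* alone and 6 in *Taar8c* alone. Of the 3 genes *Taar8c* thus has the fewest positions at which a read can be assigned to it and to no other.

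Between the variable positions the genes share long runs. The longest run that *Taar7e* and *Taar7f* have in common covers coding bases 32 to 287, at chr10:24037645-24037900 in *Taar7e* and chr10:24049541-24049796 in *Taar7f*, both on the plus strand. The longest run of *Taar8b* and *Taar8c* covers coding bases 403 to 570, at chr10:24091725-24091892 in *Taar8b* and chr10:24101343-24101510 in *Taar8c*, both on the minus strand. They are printed without capitals, since no base in them differs within the pair, and they show stretches of 256 and 168 bases in which a read cannot be placed in 1 gene of the pair.
Taar7e and Taar7f: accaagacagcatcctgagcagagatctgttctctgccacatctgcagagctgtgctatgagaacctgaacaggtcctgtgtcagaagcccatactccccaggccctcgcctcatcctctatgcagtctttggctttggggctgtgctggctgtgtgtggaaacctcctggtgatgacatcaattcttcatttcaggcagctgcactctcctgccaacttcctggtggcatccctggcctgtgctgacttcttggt
Taar8b and Taar8c: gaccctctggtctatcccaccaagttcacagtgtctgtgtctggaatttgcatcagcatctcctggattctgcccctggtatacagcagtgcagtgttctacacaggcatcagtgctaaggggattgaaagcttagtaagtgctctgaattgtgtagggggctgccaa

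Over the whole coding sequence, the *Taar7* genes were identical in pairs at 91.7% (*Taar7a* and *Taar7f*) to 95.4% (*Taar7e* and *Taar7f*) of bases, and the *Taar8* genes at 96.6% (*Taar8a* and *Taar8b*) to 98.1% (*Taar8a* and *Taar8c*). The encoded receptors shared 88.0% to 93.9% of residues within *Taar7* and 95.6% to 96.8% within *Taar8*, while 64.5% to 67.3% were shared between a *Taar7* and a *Taar8* receptor. At a window length of 50 bases, 36.5% of the windows of *Taar7a* were found in another *Taar7* gene, against 51.7% for *Taar7e*, and 72.5% of those of *Taar8c* in another *Taar8* gene. Outside the subfamily, counting *Taar7c-ps*, 23.2% of the *Taar7* windows and 0.169% of the *Taar8* windows were found. At a length of 100 bases, 9.61% of the windows of *Taar7a* were found in another *Taar7* gene, against 33.2% for *Taar7e*. *Taar8c* shared 52.6% of such windows with another *Taar8* gene, the highest value of the 8 genes at this length. Of the same windows, 8.61% of those of the *Taar7* genes were found in *Taar7c-ps*, and 0 of them in a *Taar* gene of another name. None of those of the *Taar8* genes was found outside *Taar8* (0%). How the tools behind the deposited values assigned shared reads was not tested.

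**Figure D1:**
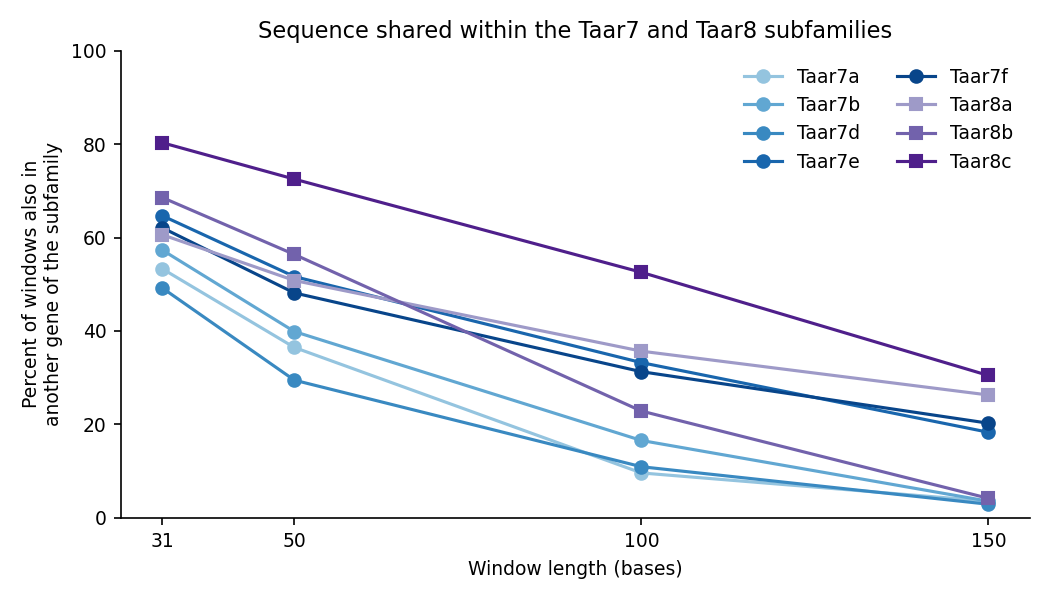
Percent of windows of each coding sequence (y axis) that also occur in another gene of the same subfamily, for windows of 31, 50, 100 and 150 bases (x axis), with circles for *Taar7* genes and squares for *Taar8* genes. *Taar8c* has the highest value at each length, and *Taar7a* falls to 9.61% at 100 bases.

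Reporter-positive cells of both lines held more *Taar7* and *Taar8* transcript than reporter-negative cells. The summed TPM of *Taar7* was 47.4 in GFP-negative and 459.7 in GFP-positive cells, a ratio of 9.71. It was 60.6 in tdTomato-negative and 610.8 in tdTomato-positive cells, a ratio of 10.1. *Taar8* was listed at 0 in reporter-negative cells of either line, and its sum was 60.7 in GFP-positive and 235.3 in tdTomato-positive cells. With a single library in each group the differences could not be checked against replicates, and no test was done. TPM is scaled to the same total in every library, so the depth is unknown. Single genes were compared on the log2(TPM + 1) scale, which understates changes of genes with low values.

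Within *Taar7*, *Taar7e* and *Taar7f* were the lowest genes in GFP-negative cells and the highest in both reporter-positive libraries. In tdTomato-negative cells *Taar7f* was at place 3 of the *Taar7* genes, with 12.8 TPM beside 15.4 for *Taar7d*. *Taar7e* had 4.67 TPM in GFP-negative, 126.7 in GFP-positive, 6.55 in tdTomato-negative and 338 in tdTomato-positive cells. *Taar7f* had 3.91, 136.2, 12.8 and 155.9 TPM in the same order. The ratio of reporter-positive to reporter-negative TPM was 27.1 for *Taar7e* and 34.8 for *Taar7f* in the GFP line, and 51.6 and 12.1 in the tdTomato line. In each line these genes had the highest ratios among the *Taar7* genes with a value above 0 in both libraries.

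*Taar7a* and *Taar7d* were the highest *Taar7* genes in the reporter-negative libraries. *Taar7a* had 15.3 TPM in GFP-negative, 83.4 in GFP-positive, 25.8 in tdTomato-negative and 33.5 in tdTomato-positive cells. Its ratio was 5.45 in the GFP line and 1.30 in the tdTomato line, the lowest ratio of any member in the tdTomato line. *Taar7d* had 14.3, 92.5, 15.4 and 61.7 TPM in the same order, with ratios of 6.45 and 4.01. Among the 14 olfactory *Taar* genes, *Taar7a* held the first and *Taar7d* the second place in both reporter-negative libraries.

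*Taar7b* was the lowest *Taar7* gene in both reporter-positive libraries. It had 9.17 TPM in GFP-negative cells, was listed at 0 in tdTomato-negative cells, and had 20.9 TPM in GFP-positive and 21.7 in tdTomato-positive cells. As deposited, the values of the reporter-positive libraries lay close together, with a ratio of 1.04, but under the 3 other scalings the log2(TPM + 1) difference of tdTomato-positive from GFP-positive cells was -0.37 to -2.08. The ratio in the GFP line was 2.28, and none is given for the tdTomato line because of the 0.

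All 3 *Taar8* genes were at 0 in the GFP-negative and the tdTomato-negative library. *Taar8a* had 8.34 TPM in GFP-positive and 17.5 in tdTomato-positive cells. *Taar8b* had 45.4 and 89.1 TPM, and *Taar8c* had 6.98 and 128.7. *Taar8a* and *Taar8b* were each close to 2-fold higher in tdTomato-positive than in GFP-positive cells, with ratios of 2.09 and 1.96 as deposited, but their log2(TPM + 1) differences fell to 0.28 and 0.20 under median-ratio scaling and turned to -1.08 and -1.21 when the libraries were scaled to mature OSN markers. The ratio of *Taar8c* was 18.4, and its difference stayed positive under each of 3 other scalings, at 1.98 to 3.64.

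**Figure D2:**
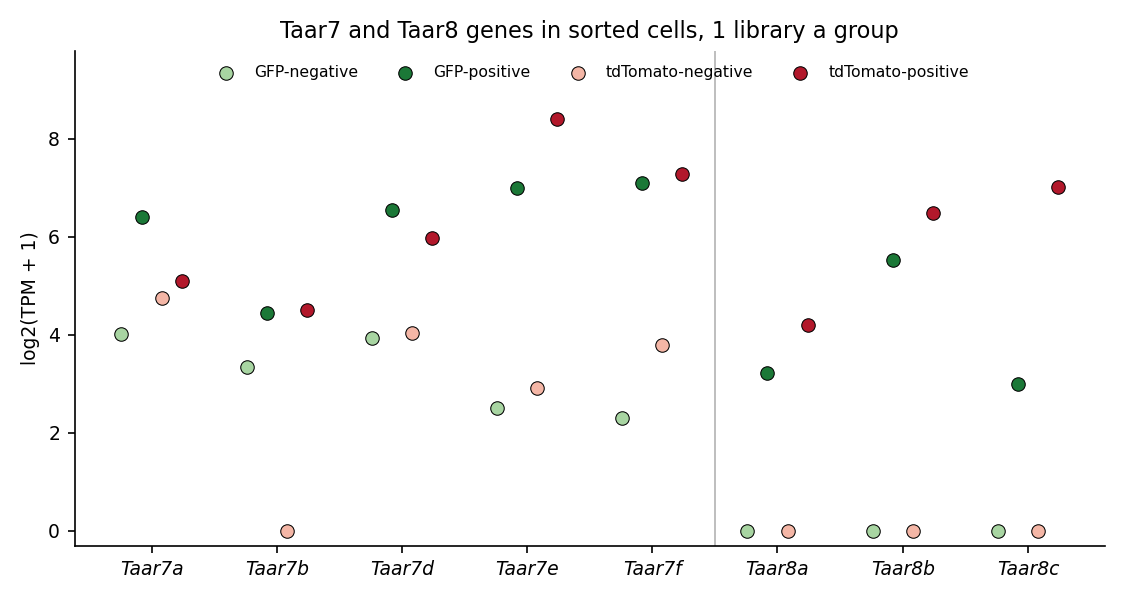
Level of each *Taar7* and *Taar8* gene (x axis) in log2(TPM + 1) (y axis), with 1 point for each of the 4 libraries and no error bars, since each group has 1 library. The *Taar8* genes are at 0 in both reporter-negative libraries, and *Taar7a* has its reporter-positive and reporter-negative points close together in the tdTomato line.

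Counted against all genes, 8 of 8 members were at least 2-fold higher in GFP-positive than in GFP-negative cells on the log2(TPM + 1) scale, where 12.8% of the 17963 genes above 0 in either library were. With a pseudocount of 10 the count was 5, since *Taar7b*, *Taar8a* and *Taar8c* had log2 differences of 0.69, 0.88 and 0.76. At 4-fold or more the count was 7 of 8, without *Taar7b*, and the background was 6.63%. In the tdTomato line 7 of 8 members were at least 2-fold higher, without *Taar7a*, against 16.2% of 16752 genes. Scaled to mature OSN markers the count was 8 of 8, since the log2 difference of *Taar7a* moved from 0.37 to 1.29. This scaling raises the log2 ratio of every gene in this line by 0.98, and the background under it was not counted. As deposited 6 of 8 were at least 4-fold higher, without *Taar7a* and *Taar7d*, against 7.72%. No member was 2-fold lower in either line, whereas 40.5% of genes in the GFP line and 21.9% in the tdTomato line were. The median log2 difference of the members was 3.11 in the GFP line, with a range of 1.11 to 5.54, beside a median of -0.74 over all genes. In the tdTomato line it was 4.36, with a range of 0.37 to 7.02, beside a median of -0.19 over all genes.

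The position along the cluster gave no single order of levels. *Taar8a*, the *Taar8* gene nearest to *Taar7f*, was the lowest of the 14 olfactory *Taar* genes in tdTomato-positive cells and at place 13 in GFP-positive cells, below *Taar8b* in both.

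**Figure D3:**
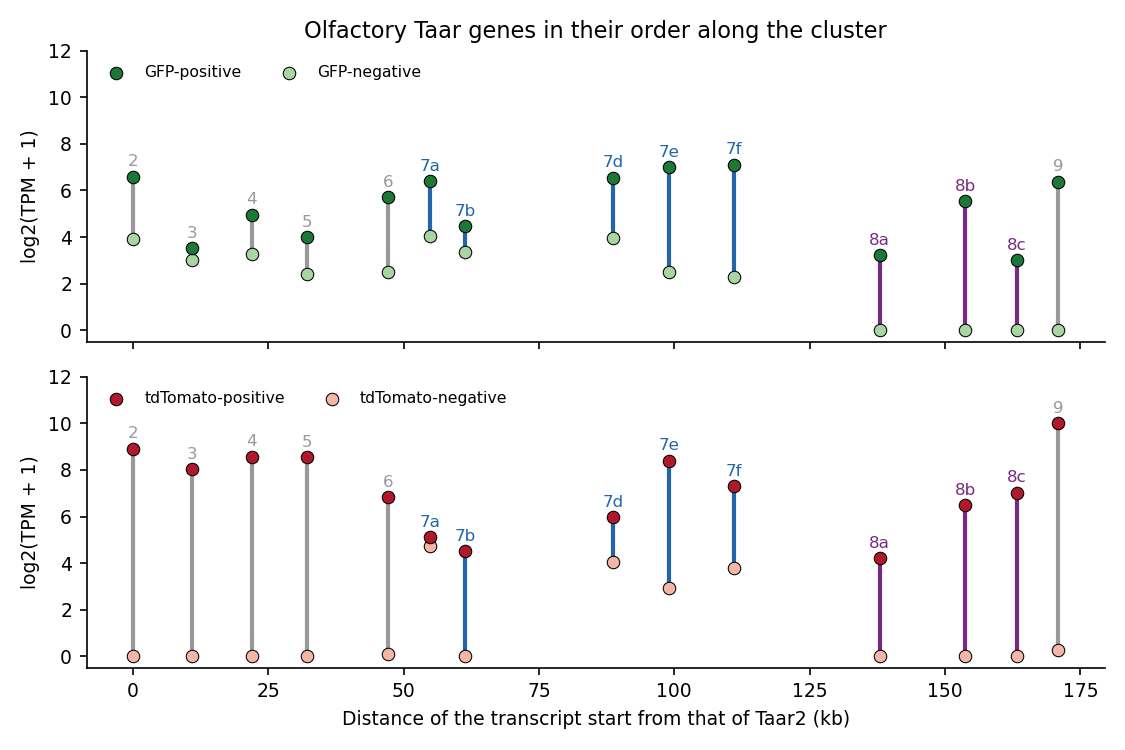
Level of each olfactory *Taar* gene in log2(TPM + 1) (y axis) against the distance of its transcript start from that of *Taar2* in kb (x axis), for the GFP line (top) and the tdTomato line (bottom). A vertical line joins the reporter-negative and reporter-positive library of each gene, with *Taar7* in blue, *Taar8* in purple and other genes in grey, and the line of *Taar7a* is the shortest one in the lower panel.

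The place of the subfamilies among the olfactory *Taar* genes differed between the libraries. *Taar7* made up 55.0% of the summed TPM of the 14 olfactory *Taar* genes in GFP-negative and 57.2% in GFP-positive cells. In the tdTomato line it made up 99.6% in tdTomato-negative and 17.6% in tdTomato-positive cells. The 6 other genes summed to 38.7 TPM in GFP-negative, 283.6 in GFP-positive, 0.262 in tdTomato-negative and 2629 in tdTomato-positive cells. *Taar7f*, *Taar7e*, *Taar7d* and *Taar7a* were thus at places 1, 2, 4 and 5 among the 14 genes in GFP-positive cells, while *Taar7e*, at place 5, was the highest member in tdTomato-positive cells. The *Taar8* share was 7.55% in GFP-positive and 6.77% in tdTomato-positive cells.

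Between the reporter-positive libraries, the summed TPM of *Taar7* was 1.33-fold higher in tdTomato-positive than in GFP-positive cells (log2 ratio 0.41), but the direction flipped under each of 3 other scalings of the libraries, with log2 ratios of -0.36, -0.030 and -1.78. The sum of *Taar8* was 3.88-fold higher (log2 ratio 1.95), and it too changed sign, to -0.23, when the libraries were scaled to mature OSN markers. The sum of the other 6 genes was 9.27-fold higher as deposited (log2 ratio 3.21), and its value under the other scalings was not calculated. *Taar7e* and *Taar8c* were at least 2-fold higher in tdTomato-positive cells, 2 of 8 members where 30.5% of 17316 genes were. *Taar7e* lost this call under each of the other scalings, with log2 differences of 0.64, 0.97 and -0.77. *Taar7a* was at least 2-fold lower, 1 of 8 where 10.2% of genes were. *Taar7d*, at -0.58 as deposited, was also 2-fold lower under each of the other scalings (-1.34, -1.01 and -2.75). Scaling to mature OSN markers put *Taar7b*, *Taar7f*, *Taar8a* and *Taar8b* past 2-fold lower as well, at -2.08, -1.99, -1.08 and -1.21. These scalings shift the log2 ratio of every gene, by -0.77, -0.44 and -2.19 (median ratio, highest genes removed, OSN markers). The share of all genes past 2-fold in either direction under them was not counted. As deposited, the median log2 difference was 0.55 over all genes and 0.58 over the members.

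**Figure D4:**
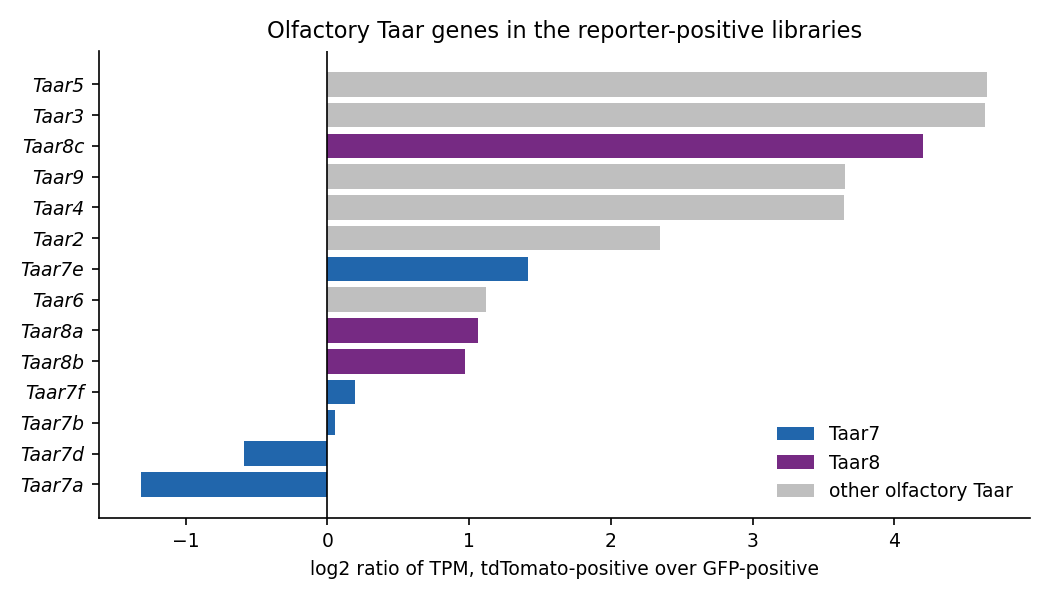
Log2 ratio of TPM in tdTomato-positive over GFP-positive cells (x axis) for each of the 14 olfactory *Taar* genes (y axis), as deposited, with bars from 0 and 1 library for each group. *Taar7a* and *Taar7d* lie below 0, and *Taar8c* lies above the other *Taar8* genes.

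Between the reporter-negative libraries, 1 of the 5 members above 0, *Taar7f*, was at least 2-fold higher in tdTomato-negative than in GFP-negative cells, where 10.6% of genes were. *Taar7b* was at least 2-fold lower, 1 of 5 where 11.5% of genes were. The *Taar7* sums of these libraries had a ratio of 1.28. The other 6 olfactory *Taar* genes had a ratio of 0.00677, so *Taar7* was nearly all of the olfactory *Taar* signal left in tdTomato-negative cells.

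Ratios between genes of a subfamily with the same coding length do not depend on the scaling of a library. *Taar7a* made up 32.3% of summed *Taar7* TPM in GFP-negative and 42.6% in tdTomato-negative cells, but 18.1% in GFP-positive and 5.49% in tdTomato-positive cells. *Taar7e* went the other way, from 9.85% to 27.6% in the GFP line and from 10.8% to 55.3% in the tdTomato line. *Taar7a* was accordingly 3.27 times *Taar7e* in GFP-negative and 3.94 times in tdTomato-negative cells, while *Taar7e* was 1.52 times *Taar7a* in GFP-positive and 10.1 times in tdTomato-positive cells. The order of these genes was therefore inverted between reporter-negative and reporter-positive cells in both lines.

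*Taar7f* rose as a share of *Taar7* from 8.26% to 29.6% in the GFP line and was 21.2% and 25.5% in tdTomato-negative and tdTomato-positive cells. *Taar7d* went from 30.3% to 20.1% and from 25.4% to 10.1%. *Taar7b* went from 19.4% to 4.55% in the GFP line and from 0% to 3.56% in the tdTomato line. The part of the composition that differed, taken as the summed share by which 1 library exceeded the other, was 39.1% between GFP-positive and GFP-negative cells and 52.4% between tdTomato-positive and tdTomato-negative cells. It was 27.8% between the reporter-positive libraries and 24.2% between the reporter-negative ones.

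Within *Taar8*, *Taar8b* made up 74.7% of the summed TPM in GFP-positive and 37.9% in tdTomato-positive cells, and *Taar8c* made up 11.5% and 54.7%. *Taar8b* was 6.50 times *Taar8c* in GFP-positive cells, and *Taar8c* was 1.44 times *Taar8b* in tdTomato-positive cells. The ratio of *Taar8a* to *Taar8b* was 0.184 and 0.196, much closer between the lines. The composition differed by 43.2%. *Taar8c* is also the gene with the largest share of windows in common with its subfamily, and the part of shared reads in its value was not tested.

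**Figure D5:**
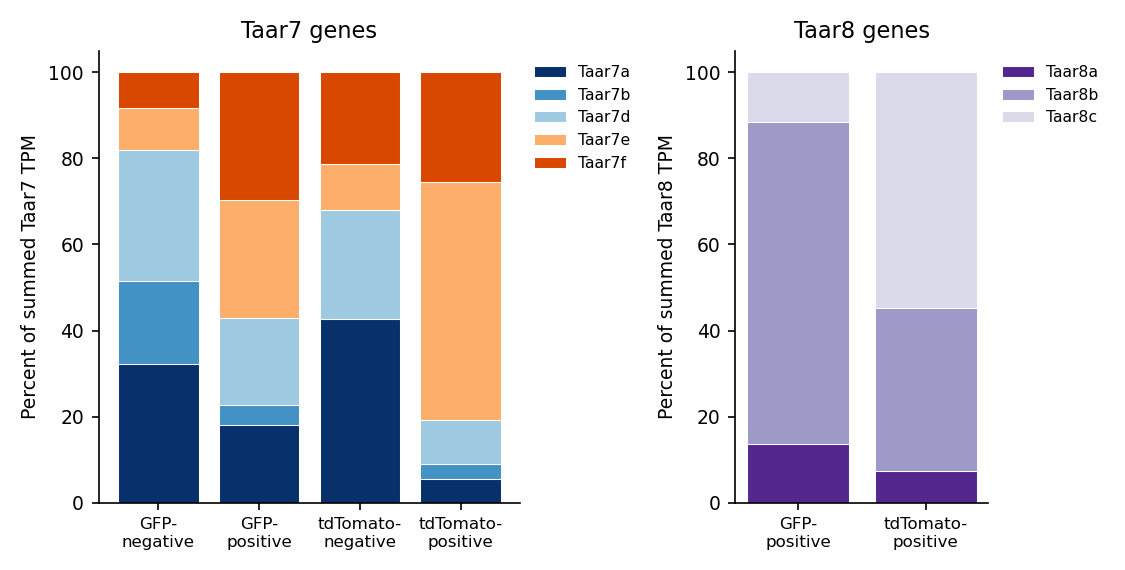
Share of each gene in the summed TPM of its subfamily in percent (y axis), for *Taar7* in the 4 libraries (left) and *Taar8* in the reporter-positive libraries, the ones where it is above 0 (right). *Taar7a* is the largest part of *Taar7* in both reporter-negative libraries, *Taar7e* reaches 55.3% in tdTomato-positive cells, and *Taar8c* goes from 11.5% to 54.7%.

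The upstream sequence was examined because all 8 members had higher values in reporter-positive than in reporter-negative cells, although by very different amounts. RefSeq windows of GRCm38.p6, with 250 bases before the annotated gene start and 50 bases after it, were given for 6 of the 8 genes, without *Taar8a* and *Taar8c*. In all 6 the annotated start is the start codon, and where transcription begins was not analysed here. *Taar7a*, *Taar7e* and *Taar8b* are shown, the first of them for the smallest and *Taar7e* for the largest ratio given in the tdTomato line, and *Taar8b* for its motifs. Capitals mark the start codon and matches to TATAAA or TAATTA on either strand. The windows are chr10:23993432-23993731 (minus strand) for *Taar7a*, chr10:24037364-24037663 (plus strand) for *Taar7e* and chr10:24092245-24092544 (minus strand) for *Taar8b*.
Taar7a: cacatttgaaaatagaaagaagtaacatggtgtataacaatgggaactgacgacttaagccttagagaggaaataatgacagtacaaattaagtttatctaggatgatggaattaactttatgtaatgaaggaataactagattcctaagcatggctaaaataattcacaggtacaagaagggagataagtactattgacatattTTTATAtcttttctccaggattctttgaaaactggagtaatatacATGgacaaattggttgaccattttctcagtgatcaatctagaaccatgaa
Taar7e: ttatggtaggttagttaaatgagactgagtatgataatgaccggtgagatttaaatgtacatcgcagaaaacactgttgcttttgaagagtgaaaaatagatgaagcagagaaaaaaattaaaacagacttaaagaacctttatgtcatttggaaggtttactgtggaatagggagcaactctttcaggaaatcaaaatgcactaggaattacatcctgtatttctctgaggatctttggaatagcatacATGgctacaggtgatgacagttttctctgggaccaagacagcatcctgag
Taar8b: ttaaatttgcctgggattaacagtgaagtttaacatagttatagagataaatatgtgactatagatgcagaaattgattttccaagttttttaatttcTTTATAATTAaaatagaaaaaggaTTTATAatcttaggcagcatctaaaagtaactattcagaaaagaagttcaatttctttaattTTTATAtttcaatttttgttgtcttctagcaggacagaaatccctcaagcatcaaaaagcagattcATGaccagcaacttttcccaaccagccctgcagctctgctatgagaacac

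TATAAA, the letters of the TATA box, occurred on either strand in 4 of the 6 windows (*Taar7a*, *Taar7b*, *Taar7f* and *Taar8b*). It occurred in 13.6% of the 32851 windows of all genes. Of the members only *Taar7b* had a match on the strand of the gene. The member windows are placed at the start codon, and whether those of all genes are was not checked. TAATTA, the core of homeodomain sites such as those of Lhx2, occurred in 1 of 6, that of *Taar8b*, where it overlaps a TATAAA match, and in 5.29% of all windows. CCCNNGGG, a core of Ebf sites, occurred in 0 of 6 windows and in 13.7% of all. These matches are to letters in this window and say nothing of binding. Over the 250 upstream bases *Taar7d* and *Taar7e* were 84.4% identical, *Taar7d* and *Taar7f* 78.4% and *Taar7e* and *Taar7f* 74.4%, whereas *Taar7a* was 44.8% to 55.6% identical to the other *Taar7* genes. *Taar7b* was 54.4% identical to *Taar7e*, 54.8% to *Taar7f* and 65.6% to *Taar7d*. The *Taar7* genes were 44.8% to 50.8% identical to *Taar8b*, a gene of the other subfamily, over the same bases.

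In TPM as deposited, none of the listed genes with which the receptors work rose 2-fold in either line. These counts were not made under the other scalings. Scaling to mature OSN markers raises the log2 ratio of every gene by 2.95 in the GFP line and 0.98 in the tdTomato line. Of 22 genes for receptor transport, the olfactory cascade and regulation of receptor genes, 0 were at least 2-fold higher in GFP-positive cells and 21 were at least 2-fold lower, where 40.5% of all genes were, with a median log2 difference of -2.80. In the tdTomato line 0 were higher, 8 were lower, where 21.9% of all genes were, and 14 differed by less than 2-fold, with a median of -0.86. The 3 transport genes, *Rtp1*, *Rtp2* and *Reep1*, which help carry odorant receptors to the membrane, had summed TPM values of 1486 in GFP-negative, 223.3 in GFP-positive, 1639 in tdTomato-negative and 746.7 in tdTomato-positive cells. The 10 cascade genes summed to 10621, 1430, 11397 and 5947 TPM in the same order.

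Markers of several cell types of the MOE differed between the same libraries, in both directions. In TPM as deposited, used for all counts here, 12.8% of all genes were at least 2-fold higher and 40.5% lower in the GFP line. In the tdTomato line 16.2% were higher and 21.9% lower. All 12 mature OSN markers were at least 2-fold lower in GFP-positive cells and 5 of 12 in tdTomato-positive cells, and their sums were 27295 in GFP-negative, 3004 in GFP-positive, 28020 in tdTomato-negative and 12617 in tdTomato-positive cells, in TPM. *Omp*, the marker of mature OSNs, was above 0 in all 4 libraries, at 1108 TPM or more. Bowman gland markers were at least 2-fold higher in 7 of 7 cases in the GFP line and 6 of 7 in the tdTomato line, with sums of 4198, 153286, 6960 and 55433 TPM in the same order of libraries. In the tdTomato line *Obp2a* went from 86.6 to 0.58 TPM, and *Bpifa1* made up 53377 TPM of the tdTomato-positive sum. Multiciliated cell markers were higher by this measure in 8 and 9 of 10, with sums of 956.3, 3341, 943 and 10519 TPM, and sustentacular cell markers in 8 and 4 of 9, with sums of 1487, 14181, 2571 and 13404 TPM. In the tdTomato line 2 sustentacular markers, *Cyp2g1* and *Cyp1a2*, were at least 2-fold lower, with log2 differences of -1.54 and -1.67, and the median of the list was 0.55. Of the multiciliated markers *Ccdc153* and *Tctex1d4* had 0 TPM in GFP-negative cells and *Tctex1d4* also in tdTomato-negative cells, and no Bowman gland or sustentacular marker was at 0 in any library. The part of these cells in the values of the members was not tested. The 10 highest genes held 31.5% of TPM in GFP-positive cells and 5.72% to 9.44% in the other libraries.

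The genes whose values lay nearest to the *Taar7* sum over the 4 libraries, by the largest difference in log2(TPM + 1), were *S100a1*, a calcium-binding protein, with 0.37, *Mettl7a1* with 0.58, *Gng5*, a G protein gamma subunit, with 0.66, *Tst* with 0.72 and *Gsta4*, a glutathione transferase, with 0.73. *Gsta4* is also on the list of sustentacular cell markers used here. *S100a1* had 53.8 TPM in GFP-negative, 516.2 in GFP-positive, 46.5 in tdTomato-negative and 578.9 in tdTomato-positive cells. The genes nearest to the *Taar8* sum were *Lhb*, the beta subunit of luteinizing hormone, with 0.39, *Iqca* with 0.47, *Slc23a1*, a vitamin C transporter, with 0.64, *1700001C02Rik* with 0.65 and *Lrrc71* with 0.68. *Lhb* was at 0 in the reporter-negative libraries and had 80.0 TPM in GFP-positive and 294.3 in tdTomato-positive cells. The likeness rests on 4 libraries, and no correlation was calculated.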

How the data were processed

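RNA-seq of 4 sorted MOE libraries was analysed as the TPM values the authors deposited for genes named by symbol. The submitters' processing notes name Trimmomatic 0.36, Salmon 1.4.0 and mm10, while the study's methods name Hisat2, Cufflinks and featureCounts, and other RNA and library kits than the labels. The gene annotation is not given in the sources used here. TPM keeps no depth, so no intervals or detection limits were calculated.

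Groups came from the sample titles. Sums, ratios and shares used TPM as deposited. Single genes were compared as log2(TPM + 1) over genes above 0 in either library, and 2-fold or more counted as higher or lower. The code for the calls was run on simulated data, with planted changes and random counting noise only. The simulation held no variation between libraries and no genes near 0, so it cannot measure how reliable the calls made here are. Members and lists were chosen with earlier results of these data known. Genes named are the members, the lists of receptor function and cell markers, and the 5 genes nearest to each subfamily sum. The marker lists were of mature and immature OSNs, globose and horizontal basal, sustentacular, Bowman gland, multiciliated, immune and olfactory ensheathing cells. Coding sequences and positions are from GRCm38 with GENCODE M21, and upstream windows from RefSeq (GRCm38.p6). Windows shared between coding sequences were exact matches. Alternatives were pseudocounts of 0.1 and 10, 3 other scalings (median ratio, removal of the 10 highest genes of any library, and 12 mature OSN markers), other minimums, and window lengths. Python 3.11.15, NumPy 2.4.6, pandas 2.3.3, Biopython 1.88 and matplotlib 3.10.9 were used.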

Additional observations from a re-analysis of the deposited data

Results flagged for a closer look

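Some values moved in opposite directions in the lines, and with 1 library for each group the differences were not tested. The share of *Taar7* in olfactory *Taar* TPM was 2.16 percentage points higher in GFP-positive than in GFP-negative cells, while the difference between tdTomato-positive and tdTomato-negative cells was -82.0 points. The share of *Taar7b* in *Taar7* differed by -14.8 points in the GFP line and by 3.56 points in the tdTomato line, where it was listed at 0 in tdTomato-negative cells. The median log2(TPM + 1) difference of 5 horizontal basal cell markers was 2.90 in the GFP line and -2.04 in the tdTomato line. That of 5 globose basal and precursor markers was 0.96 and -1.55. In the GFP line, however, 2 of them, *Neurod1* and *Neurog1*, were at least 2-fold lower. All 5 markers together summed to 73.1 TPM in GFP-negative and 34.0 in GFP-positive cells.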

How the results depend on the processing

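No paired analysis was possible because the groups compared share 1 replicate number, and the lines, which carry different enhancers, are not replicates of each other. Scaling to 12 mature OSN markers moved the log2 ratio of summed *Taar7* to 6.23 in the GFP line and 4.31 in the tdTomato line, and the log2 ratios of tdTomato-positive over GFP-positive cells to -1.78 for *Taar7* and -0.23 for *Taar8*, both of which reversed. Median-ratio scaling gave 4.16 for *Taar7* in the GFP line, and between the reporter-positive libraries -0.36 for *Taar7*, which reversed, and 1.18 for *Taar8*. Rescaling without the highest genes gave -0.030 for *Taar7* between the reporter-positive libraries, also a reversal. These scalings raised log2 ratios of TPM in the GFP line by 0.88, 0.51 and 2.95 (median ratio, highest genes removed, OSN markers), and differences of log2(TPM + 1) by other amounts at low values. For single members between the reporter-positive libraries these scalings were added after seeing the data. *Taar7b* turned to -0.69, -0.37 and -2.08 and *Taar7f* to -0.57, -0.24 and -1.99 (median ratio, highest genes removed, OSN markers), and OSN markers turned *Taar7e* to -0.77, *Taar8a* to -1.08 and *Taar8b* to -1.21. With a pseudocount of 10 the members at least 2-fold higher in the GFP line were 5 instead of 8. The share of member windows found in another *Taar* transcript was 49.0% at 50 bases, 26.6% at 100 and 13.9% at 150. The other 44 alternatives for sums, shares, counts and compositions moved the value by less than 1.5 times without a change of direction. Over 80 alternatives for single members within a line, 37 moved the log2 difference by more than a factor of 1.5 in fold, and all 80 values were positive, between 0.28 and 10.33. Unknown depth limits the values listed at 0 and the low values of the reporter-negative libraries.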

Other observations

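The 5 immature OSN markers summed to 1466 TPM in GFP-negative, 356.4 in GFP-positive, 1143 in tdTomato-negative and 667.0 in tdTomato-positive cells. The 5 immune cell markers summed to 5811, 2211, 2555 and 1828 TPM in the same order. *Lyz2* made up 2043 of the GFP-positive and 1707 of the tdTomato-positive sum and was higher there than in reporter-negative cells (log2 differences 0.37 and 1.27), whereas each of the other 4 immune markers was lower by 2-fold or more, in the GFP and in the tdTomato line. The 5 olfactory ensheathing cell markers summed to 2160, 285.5, 558.7 and 166.4 TPM. The 5 horizontal basal cell markers summed to 63.0, 629.2, 151.6 and 29.1 TPM.

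In GFP-negative cells the ratio of *Taar7a* to *Taar7b*, which have the same coding length, was 1.67 and equal to 5 over 3 within 1e-12. In the same library *Taar7a* was 3.27 times, *Taar7d* 3.07 times and *Taar7f* 0.838 times *Taar7e*, ratios that were not set against whole numbers. Read numbers were not inferred from any of these ratios.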
